A study of Mus musculus with 6 samples.

Results

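The genes described here serve the presentation of peptides by major histocompatibility complex (MHC) class I molecules, and 10 were chosen by name. They are the transporter genes Tap1 and Tap2, the loading factor gene Tapbp, the immunoproteasome subunit genes Psmb8, Psmb9 and Psmb10, B2m, the heavy chain genes H2-K1 and H2-D1, and the regulator gene Nlrc5. Each was found through the probe sets whose platform annotation gives its symbol and no other, which gave 27 probe sets for the 10 genes. All 10 had at least 1 probe set above the filter on dim signals, out of 10372 genes above it. The probe set with the highest mean over the 6 arrays stands for the gene, and the others are given beside it.

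The cells were C57BL/6 mouse bone marrow macrophages without the TNF receptors TNFR1 and TNFR2, measured on Affymetrix Mouse Genome 430 2.0 arrays. Mutant cells (3 arrays) carried, by retrovirus, a fusion of the TNFR1 ectodomain and the rest of mouse RANK with inactivated IVVY motif, and wild-type cells (3 arrays) carried the same fusion with that motif intact. RANK is the receptor that drives macrophages towards bone-resorbing osteoclasts, and in these cells TNF is the ligand of the fusion. All cells were selected with puromycin (2 ug/ml) for 3 days and then cultured for 24 hours with TNF (10 ng/ml) and M-CSF (44 ng/ml), so no untreated level was measured. Each array held the pooled RNA of 6 dishes, and the array numbers 1, 2 and 3 name 3 independent assays, each with a mutant and a wild-type array. The labels name no separate mice for the assays, so the p-values below measure the spread between these RNA pools.

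Class I molecules show peptides from inside the cell to CD8 T cells. The proteasome cuts proteins into peptides, TAP carries them into the endoplasmic reticulum, and tapasin, the product of Tapbp, holds an empty heavy chain with B2m next to TAP until a peptide binds. Interferon, TNF and NLRC5 are known inducers of these genes, and in the immunoproteasome the subunits encoded by Psmb8, Psmb9 and Psmb10 replace the standard catalytic subunits of Psmb5, Psmb6 and Psmb7. Macrophages make all of these proteins, and dendritic cells, lymphocytes and stromal cells express class I genes too.

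The promoters are shown because the members share DNA elements and, at 1 place, the promoter itself. The windows run from 250 bases before to 50 bases after the RefSeq start of a gene, in build GRCm38.p6, and 8 of the 10 members had at least 1. Tap2 and Nlrc5 were not matched there. Capitals mark every match, on either strand, to GAAANNGAA (part of the interferon-stimulated response element), TTCNNNGAA (gamma-activated site), GGGNNTTTC or GGGNNTTCC (parts of forms of the kappa B site), TGACG (the core of a cyclic AMP response element) and ATTGG (Y box, CCAAT on the other strand). The windows are given 5′ to 3′ in the direction of each gene.
Tap1, chr17:34187306-34187605, plus strand: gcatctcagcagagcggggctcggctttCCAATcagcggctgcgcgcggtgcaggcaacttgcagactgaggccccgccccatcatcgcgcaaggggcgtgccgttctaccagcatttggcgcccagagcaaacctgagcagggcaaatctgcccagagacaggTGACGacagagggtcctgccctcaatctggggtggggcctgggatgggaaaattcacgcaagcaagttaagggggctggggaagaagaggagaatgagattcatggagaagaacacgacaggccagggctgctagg
H2-K1, chr17:34000298-34000597, minus strand: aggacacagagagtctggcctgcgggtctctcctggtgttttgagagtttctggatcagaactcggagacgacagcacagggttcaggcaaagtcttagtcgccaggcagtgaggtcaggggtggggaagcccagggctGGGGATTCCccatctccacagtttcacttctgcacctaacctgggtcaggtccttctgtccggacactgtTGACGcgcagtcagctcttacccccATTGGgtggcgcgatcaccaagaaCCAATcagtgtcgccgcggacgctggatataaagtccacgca
H2-D1, chr17:35262844-35263143, plus strand: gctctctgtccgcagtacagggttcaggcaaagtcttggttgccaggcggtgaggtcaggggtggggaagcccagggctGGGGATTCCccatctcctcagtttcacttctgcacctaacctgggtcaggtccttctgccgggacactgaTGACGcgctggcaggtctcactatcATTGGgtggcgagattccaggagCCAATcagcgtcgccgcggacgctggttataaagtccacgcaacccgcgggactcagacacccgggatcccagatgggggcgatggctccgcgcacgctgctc
B2m, chr2:122147437-122147736, plus strand: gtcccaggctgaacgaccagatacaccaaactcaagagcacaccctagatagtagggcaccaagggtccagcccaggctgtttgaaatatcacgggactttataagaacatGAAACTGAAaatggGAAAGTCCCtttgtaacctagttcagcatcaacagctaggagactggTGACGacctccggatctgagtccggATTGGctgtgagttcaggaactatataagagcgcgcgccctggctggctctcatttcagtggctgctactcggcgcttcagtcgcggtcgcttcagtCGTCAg

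Psmb9 and Tap1 are neighbours on chromosome 17 and point away from each other. Their RefSeq starts are separated by 225 bases, and the Psmb9 window (chr17:34187281-34187580, minus strand) shares 275 of its 300 bases with the Tap1 window, read from the other strand. Psmb8 and Tap2 follow Tap1 directly in the gene order of that assembly, within the MHC class II region. The TGACG and Y box matches of the Tap1 window lie in the shared stretch.

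The H2-K1 and H2-D1 windows each hold a match to the kappa B form GGGNNTTCC, then TGACG, then ATTGG. The 100 bases from the first base of that kappa B match to the last base of ATTGG were identical at 89 positions between H2-K1 and H2-D1, without gaps. A second H2-K1 window, which overlaps the first, holds the same matches. In B2m, H2-K1 and H2-D1 alike, ATTGG begins 25 bases after TGACG begins. The spacing and the kappa B forms were set after the windows had been read. Of all 32851 windows, 31 (0.0944%) hold that spacing. As background, NLRC5 is known to act on class I promoters through an element with an X box, which includes a cyclic AMP response element core, and a Y box. The B2m window holds a match to GAAANNGAA that begins 139 bases before the start, and next to it a match to GGGNNTTTC that begins 125 bases before it.

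Over all windows, 8.56% hold GAAANNGAA, 8.30% TTCNNNGAA, 4.36% GGGNNTTTC, 5.82% GGGNNTTCC, 20.8% TGACG and 37.4% ATTGG. Psmb8 has a match to TTCNNNGAA that begins 97 bases before its start, Tapbp has 2 to ATTGG, and the Psmb10 window has none of the 6. A match describes letters, and binding of a factor was not measured. Only these letters were searched, so a window without a match, such as those of H2-K1 and H2-D1 for GAAANNGAA, may hold another form of the element.

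**Figure D1:**
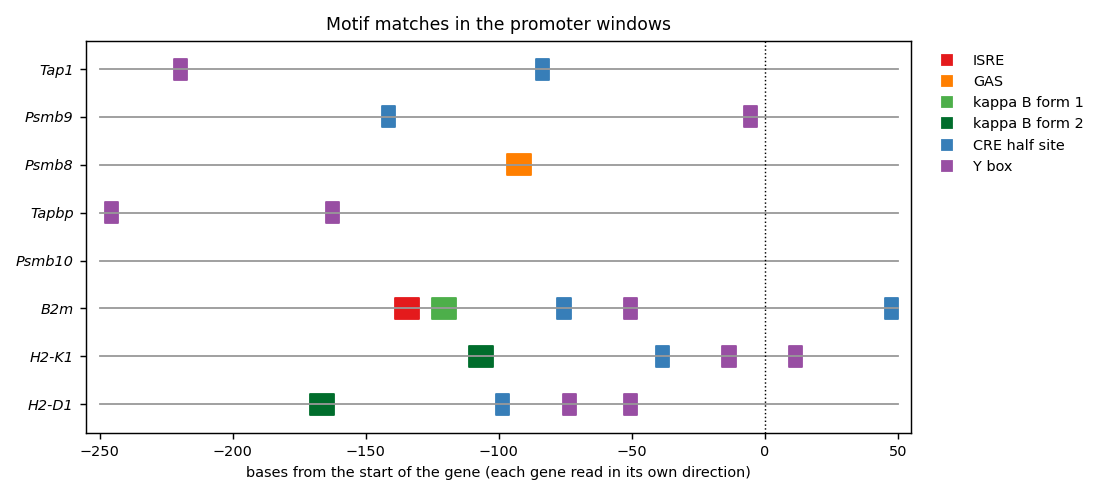
Motif matches in the promoter windows of the 8 members with a window, in bases from the start of each gene (dotted line), with 1 colour per motif. In B2m, H2-K1 and H2-D1 the core of the cyclic AMP response element (CRE) and the following Y box begin 25 bases apart. For H2-K1 only 1 of its 2 windows is drawn.

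The median intensity was 8.87 to 9.13 on mutant and 8.91 to 9.38 on wild-type arrays. Macrophage markers were bright on every array, and Cd68 read 21789 to 24655 on mutant and 22566 to 24889 on wild-type arrays. The T cell markers Cd3d, Cd3e, Cd3g and Cd8a and the NK cell markers Ncr1, Gzma and Prf1 read at most 8.30 on any array. The osteoclast markers summed to 815 to 1319.8 in the mutant and 8074 to 25116 in the wild type. In pooled RNA, fewer cells of a type and less RNA per cell cannot be told apart.

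All 10 members had a lower mean in mutant cells, where 46.8% of the 10372 genes had a lower mean log2 value. The differences were small. On the log2(value + 16) scale they ran from -0.54 for Tap1 to -0.06 for B2m, with a median of -0.21, and the median over all genes was 0.01. By limma 0 members passed at a Benjamini-Hochberg adjusted p under 0.05 over 22497 probe sets, and 0% of all probe sets did. Without a block 1 member (Tap2) had a lower mean at an unadjusted p under 0.05, where 0.935% of genes did. With the replicate number as a block in limma, 0 members and 0 probe sets passed, and 2 members, Tap2 and Psmb10, were lower and under 0.05 unadjusted, where 3.07% of genes were, among 1189 probe sets against 198 without the block. Within the 3 pairs, 4 members (Tap2, Tapbp, Psmb10 and B2m) were lower in the mutant every time, where 12.0% of genes were, and 0 were higher every time, where 14.5% were. Of the 21 member probe sets above the filter, 12 were lower in every pair, where 11.7% of all probe sets were. Of those 12, 7 belong to H2-K1 and H2-D1 and are not independent, so the count by gene is the plainer one. Among the 21, 1, that of Tap2, was lower with no overlap of the groups, where 1.59% of all probe sets were.

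**Figure D2:**
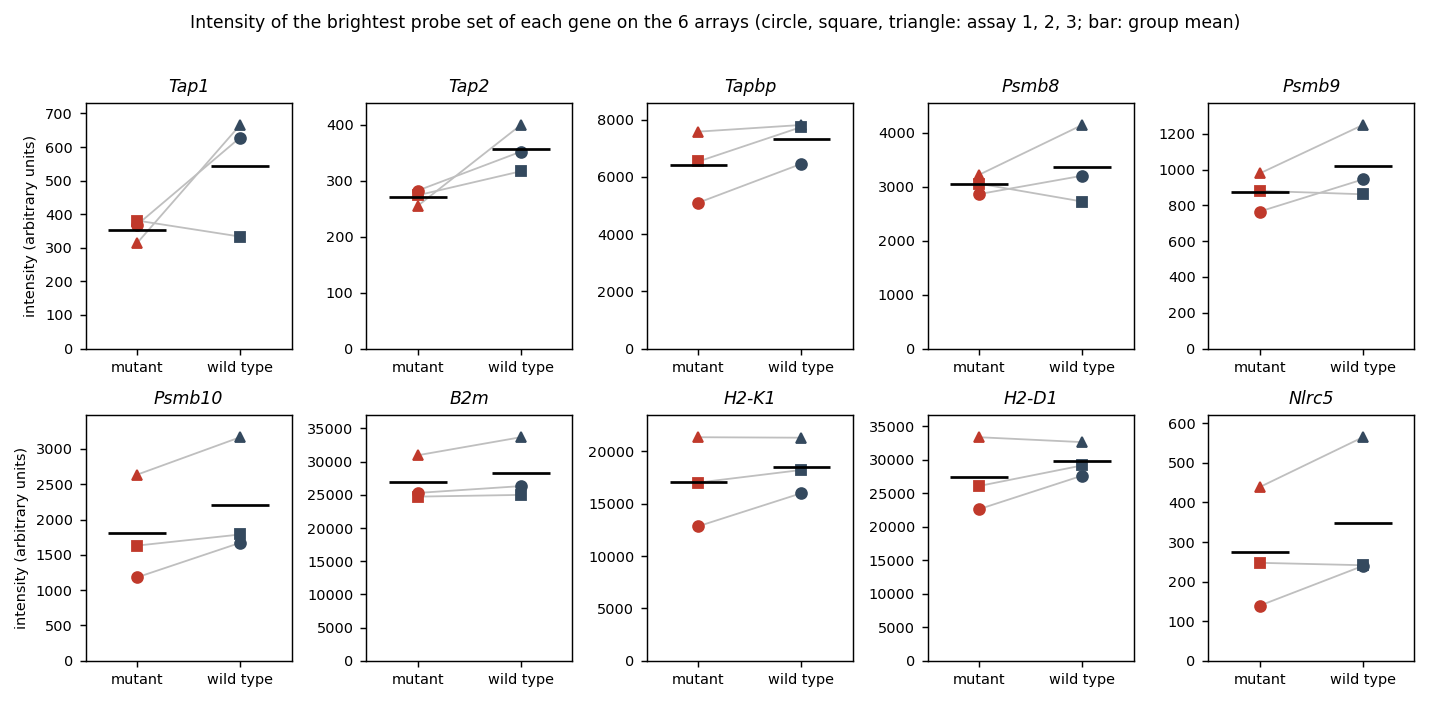
Intensity of the brightest probe set of each member on the 6 arrays, mutant left and wild type right, with a linear axis from 0 in each panel. Symbols give the assay, grey lines join arrays of the same assay and bars are group means (n = 3 each). The mutant and wild-type values of Tap2 lie apart, while those of the other 9 members overlap.

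The largest difference was in the peptide transporter. Tap1, which encodes a chain of TAP, read 368, 381 and 314 on mutant arrays 1, 2 and 3, against 628, 333 and 666 on wild-type arrays 1, 2 and 3. Wild-type array 2 lay among the mutant values, so the groups overlapped. Mutant arrays averaged 354 ± 35.7 and wild-type arrays 542 ± 182 (SD, n = 3 per group), a log2 difference of -0.54 ± 0.29 SE with a 95% interval from -1.26 to 0.19. Tap1 was lower in the mutant in assays 1 and 3, by -0.75 and -1.05, and higher in assay 2, by 0.19. Its other 3 probe sets read between 4.47 and 5.91 on all arrays, below the filter, and carry no information on Tap1.

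Tap2, the partner chain of TAP, read 282, 274 and 255 on the mutant arrays, against 352, 317 and 399.8 on the wild-type arrays. Each mutant array lay below each wild-type array, which held for no other member and for 1.96% of all genes. No member lay above the wild type without overlap, where 1.36% of genes did. Mutant arrays averaged 271 ± 14.0 and wild-type arrays 356 ± 41.6 (SD, n = 3 per group), a log2 difference of -0.37 ± 0.12 SE with an interval from -0.67 to -0.08. By limma the unadjusted p was 0.0226, or 0.0322 once replicates were blocked, and the adjusted p were 0.99998 and 0.859. The pair differences were -0.30, -0.20 and -0.62 in assays 1, 2 and 3.

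Tapbp encodes tapasin, which bridges TAP and the class I heavy chain. It read 5102, 6543 and 7586 on mutant arrays 1, 2 and 3, against 6461, 7749 and 7819 on wild-type arrays 1, 2 and 3. The mutant array was the lower in each assay, but the assays spread widely enough for the groups to overlap. The log2 difference was -0.21 ± 0.18 SE, with an interval from -0.67 to 0.25. A dimmer probe set of Tapbp read 540.1, 215 and 723 in the mutant, against 647, 622 and 663 in the wild type, and so differed between the assays, by -0.25, -1.47 and 0.12 on the log2 scale. The brighter probe set differed most in assay 1 and the dimmer in assay 2.

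Among the immunoproteasome subunits, Psmb9, the beta1i subunit, read 766, 881 and 979 in the mutant, against 945, 862 and 1249.6 in the wild type. Its pair differences were -0.30, 0.03 and -0.35, and the log2 difference was -0.20 ± 0.18 SE. Like Tap1, Psmb8 and Nlrc5, it was lower in the mutant in assays 1 and 3 and not in assay 2. A link of this pattern to the promoter region shared with Tap1 was not tested.

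Psmb8, the beta5i subunit, lies on the other side of Tap1 and read 2863, 3056 and 3221 in the mutant, against 3203, 2725 and 4144 in the wild type. Its pair differences were -0.16, 0.16 and -0.36, again with the opposite sign in assay 2, and the log2 difference was -0.12 ± 0.18 SE. A dim second probe set of Psmb8 read 41.9 to 58.0 in the mutant and 31.9 to 65.5 in the wild type, and its difference of 0.03 ± 0.23 SE was the only positive one among the member probe sets above the filter.

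Psmb10, the beta2i subunit, lies outside the MHC on chromosome 8. It read 1181, 1631 and 2635 on mutant arrays 1, 2 and 3, against 1670.3, 1789 and 3166 on wild-type arrays 1, 2 and 3. The mutant array was lower in every assay, by -0.49, -0.13 and -0.26, while both assay 3 arrays lay above the other 4. The log2 difference was -0.30, with an SE of 0.39 without the block and 0.10 with replicates blocked (limma, blocked, unadjusted p = 0.0477, adjusted p = 0.859).

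Of all members B2m had the smallest difference. B2m, the light chain of all class I molecules, read 25292, 24733 and 30969 in the mutant, against 26316, 24995 and 33684 in the wild type. Its pair differences were -0.06, -0.02 and -0.12, and the fitted difference was -0.06 ± 0.17 SE with an interval from -0.48 to 0.35. The second B2m probe set differed by -0.17 ± 0.19 SE.

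H2-K1, the K heavy chain, read 12849, 17015 and 21344 on mutant arrays 1, 2 and 3, against 16002, 18218 and 21299 on wild-type arrays 1, 2 and 3. The mutant was lower in assays 1 and 2, by -0.32 and -0.10, and level in assay 3, at 0.00. H2-D1, the D heavy chain, read 22627, 26083 and 33359 in the mutant, against 27621, 29146 and 32628 in the wild type, with pair differences of -0.29, -0.16 and 0.03. The fitted differences were -0.14 ± 0.22 SE for H2-K1 and -0.14 ± 0.17 SE for H2-D1. For these brightest probe sets of both genes the gap between the groups narrowed in assay 3, where all values were highest.

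H2-K1 had 3 further probe sets above the filter, and over its 4 the differences ran from -0.37 to -0.14, the brightest differing least. The 3 further ones were lower in every pair, where 11.7% of all probe sets were. By limma with replicates blocked their unadjusted p were 0.0503, 0.0111 and 0.0269, from brightest to dimmest, with an adjusted p of 0.859 each. In the dimmest the gap was widest in assay 3, at -0.50. H2-D1 had 5 further ones above the filter, with a range from -0.23 to -0.13 over its 6, and 3 below it. In assay 1 all 10 H2 probe sets above the filter were lower in the mutant, in assay 2 also 10, and in assay 3 7. Most of them carry the suffix x_at, which the maker gives to probe sets that can bind several related transcripts. Class I heavy chain genes are related in sequence, so these probe sets are not independent and may hold signal of other class I genes.

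Nlrc5 encodes a transactivator of class I genes, and was the member with the widest interval. It read 139, 248 and 439 on mutant arrays 1, 2 and 3, against 239.7, 241 and 565 on wild-type arrays 1, 2 and 3. Both arrays of assay 3 were the highest, and the groups overlapped. Its log2 difference was -0.35 ± 0.52 SE with an interval from -1.65 to 0.96, and its pair differences were -0.72, 0.03 and -0.35.

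**Figure D3:**
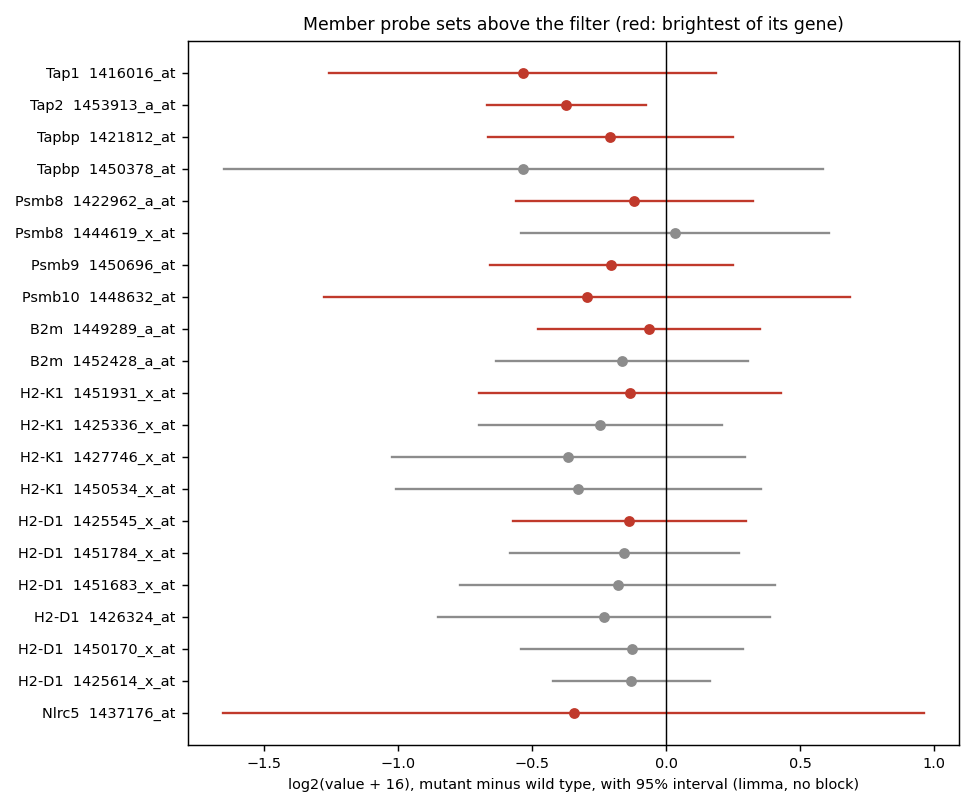
Log2 difference, mutant minus wild type, of the 21 member probe sets above the filter, with 95% intervals from limma without a block, and the brightest probe set of each gene in red. The interval of Tap2 is the 1 that leaves out 0, and the Nlrc5 and Tapbp probe sets reach furthest. Without the block these intervals include the spread between assays.

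The assays differed in which members were lower. In assay 1 all 10 members were lower in mutant cells, at a median of -0.31 on the log2 scale, where 50.8% of all genes were lower. In assay 2 there were 6 lower and 4 higher (Tap1, Psmb8, Psmb9 and Nlrc5), with a median of -0.06, where 43.8% of genes were lower. In assay 3 there were 8 lower and 2 higher (H2-K1 and H2-D1, by 0.03 at most), with a median of -0.31, where 49.6% of genes were lower. Each assay holds 1 array per group, so a difference between assays has no test. The median over members was -0.04 without mutant array 1 and also -0.04 without wild-type array 3, and -0.32 without mutant array 3.

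**Figure D4:**
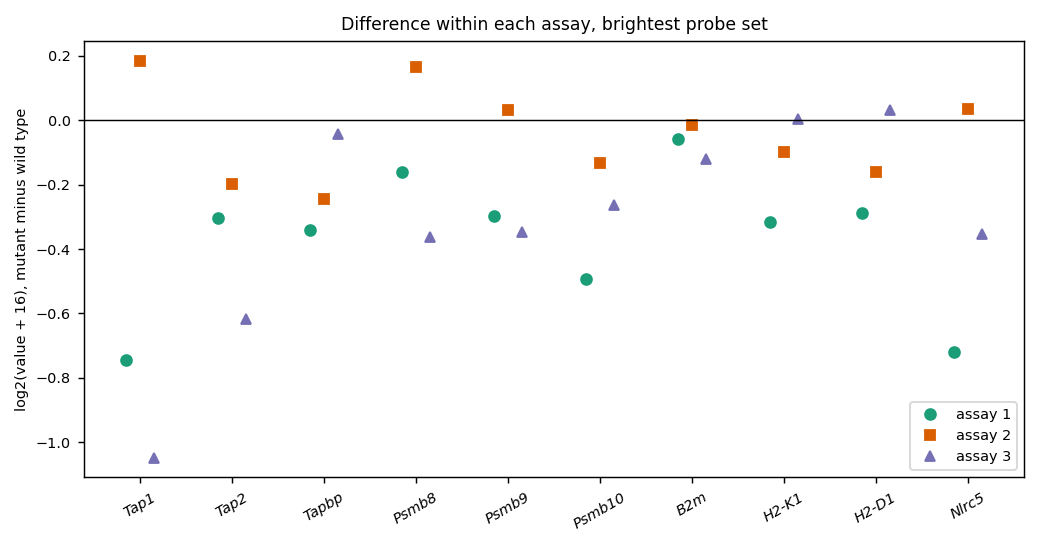
Log2 difference, mutant minus wild type, of each member within assay 1 (circles), assay 2 (squares) and assay 3 (triangles), for the brightest probe set. Tap1 runs from -1.05 to 0.19, and B2m stays between -0.12 and -0.02.

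The assay set more of the variation than the group for 8 of the 10 members. It accounted for 71.7% of the sum of squares of a member at the median and the group for 11.6%, against 77.3% and 4.51% over all genes. For B2m the shares were 94.8% for the assay and 3.56% for the group. Tap1 and Tap2 were the exceptions, with 41.3% and 77.2% for the group and 19.2% and 5.29% for the assay. For Tap1 39.5% lay with neither.

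On both arrays of assay 3, 7 members (Psmb8, Psmb9, Psmb10, B2m, H2-K1, H2-D1 and Nlrc5) read higher than on any other array, where 15.8% of genes did. Averaged over the groups, Nlrc5 lay 1.17 higher in assay 3 than in the other assays on the log2 scale, Psmb10 0.89 higher and Tap2 0.07 higher. The 5 stromal cell markers (Sparc, Col1a1, Col1a2, Col3a1 and Acta2) summed to 7197 on mutant array 3 and 5351 on wild-type array 3, and to at most 439 on the other mutant arrays and 364 on the other wild-type arrays. Their part in the levels of assay 3 was not tested.

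As a description over the 6 arrays, which share assays, Tap1 and Tap2 had a Pearson r of 0.88, and the highest likeness was between Psmb10 and Nlrc5 (r = 0.995). Tap1 and Tapbp were least alike (r = 0.09), and the median over the 45 pairs of members was 0.78. The 6 other genes most like the mean of the members were Coa5 (r = 0.993), Gm11772 (0.985), Zfp35 (0.984), Jak2 (0.984), Zfas1 (0.983) and Rassf1 (0.981). Of these, the kinase gene Jak2, which acts below the interferon gamma receptor, read 326, 407 and 479 in the mutant, against 419, 379 and 577 in the wild type.

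The rest of the class I pathway was read from 7 lists with 85 genes, of which 61 were tested. By limma 0 of the 61 passed, 0 had an unadjusted p under 0.05, and 8 did once replicates were blocked, where 0 passed too. Of the 8, 6 were lower in the mutant (H2-Q5, H2-T24, Irf1, Stat2, Relb and Nfkb2), where 3.07% of all genes were lower at that p, and 2 were higher (Nfya and Nfyb), where 2.82% were. Stat2, Nfya and Nfyb are named after their values were seen. In mutant cells the mean log2 value was lower for 41 of the 61 and higher for 20, where 46.8% of all genes were lower. The same share applies to the counts of the single lists below. The median difference was -0.05 (log2), against 0.01 over all genes. In every pair 11 were lower and 3 (Psme3, Nfya and Nfyb) higher, where 12.0% and 14.5% of genes were.

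Of 8 other class I heavy chain genes and relatives tested, 4 were lower and 4 higher, with a median of -0.04. H2-Q5 was dim, at 13.4, 17.3 and 26.6 in the mutant against 25.8, 27.8 and 114 in the wild type (-0.84 ± 0.49 SE), close to the pseudocount. H2-T24 read 173, 172 and 1049.6 against 296, 413 and 1247 (-0.72 ± 0.89 SE). Cd1d1, which presents lipids, differed by 0.13 ± 0.27 SE and Hfe, a regulator of iron uptake, by -0.11 ± 0.15 SE.

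The chaperones and peptidases of loading, 7 lower and 2 higher of 9, had a median of -0.06. Canx, the chaperone calnexin, differed by 0.07 ± 0.09 SE, Erap1, the peptidase that trims peptides in the endoplasmic reticulum, by -0.06 ± 0.29 SE, and the cytosolic peptidase genes Npepps and Lap3 by -0.17 ± 0.25 and -0.14 ± 0.22 SE.

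In the standard proteasome, Psmb5, Psmb6 and Psmb7, the standard counterparts of Psmb8, Psmb9 and Psmb10, differed by -0.01 ± 0.32, -0.00 ± 0.13 and -0.26 ± 0.28 SE. The 11 other subunits of the 20S core, 9 lower and 2 higher, had a median of -0.08, and among them Psma3 differed by -0.11 ± 0.12, Psma4 by -0.20 ± 0.22, Psmb1 by -0.08 ± 0.09 and Psmb4 by 0.14 ± 0.16 SE. Of 7 proteasome activator and assembly genes, 3 were lower and 4 higher, with a median of 0.01. Psme1, a subunit of the activator PA28, differed by -0.05 ± 0.13 SE, and the assembly factor gene Pomp by -0.01 ± 0.10, Psme3 by 0.17 ± 0.64 and Psmg2 by 0.11 ± 0.32 SE. The difference between these subunits and the members was not tested.

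Of 16 regulator genes, 10 were lower and 6 higher, with a median of -0.03. Nfkb2, which encodes an NF-kB subunit, read 151, 238 and 162 on mutant arrays 1, 2 and 3, against 228, 630.5 and 268 on wild-type arrays 1, 2 and 3. It was lower in every pair, and its log2 difference was -0.86 ± 0.42 SE (limma, unadjusted p = 0.0914). Irf1, an interferon regulatory factor that activates class I genes, read 454, 868 and 1153 against 836, 1108 and 1414 and was also lower in every pair (-0.50 ± 0.39 SE). Relb, a partner of the Nfkb2 product, differed by -0.54 ± 0.49 SE, and Rfx5, which binds the X box, by 0.12 ± 0.12 SE. Nfkb2 and Relb were lowest relative to the wild type in assay 2, by -1.35 and -0.88. In that assay 6 members were lower and 4 higher, and a link between these regulators and the members was not tested.

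The interferon genes Ifng, Ifnb1 and Ifna4 read 4.15 to 6.18 in the mutant and 4.14 to 5.51 in the wild type, below the filter. Of 7 receptor and kinase genes tested, 5 were lower and 2 higher, with a median of -0.07. Ifnar1, a chain of the type I receptor, differed by 0.20 ± 0.22 SE, Ifngr2, a chain of the interferon gamma receptor, by -0.30 ± 0.25, Tyk2 by -0.14 ± 0.12 and Jak2 by -0.17 ± 0.22 SE.

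**Figure D5:**
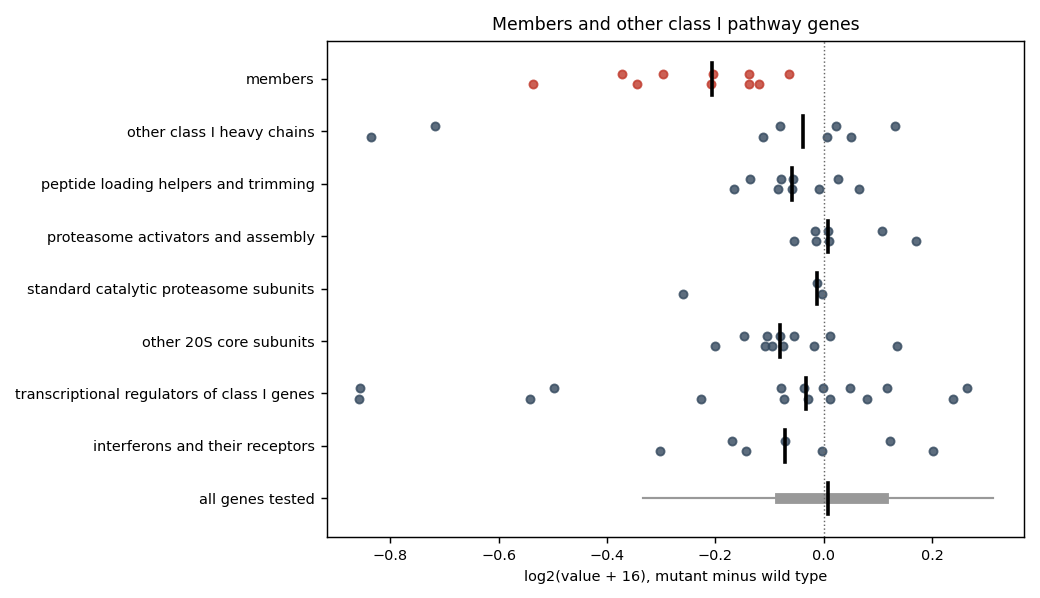
Log2 difference, mutant minus wild type, of the members (red) and of the tested genes of 7 other class I lists (blue), with black bars at the medians. The lowest row gives all 10372 genes, with a thin line from the percentile 5 to the percentile 95 (-0.33 to 0.31) and a thick line from the percentile 25 to the percentile 75. The median of the members is -0.21, and those of the other lists lie between -0.08 and 0.01.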

How the data were processed

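The deposited intensities were 1 value per probe set and array. Per the submitters' processing notes GCOS and GCRMA were used. Which step each did is not stated there. GCRMA sets the single probes of all arrays to 1 distribution and draws dim probe sets together near a floor. The deposited probe set values did not share 1 distribution, as their medians ran from 8.87 on mutant array 2 to 9.38 on wild-type array 1. Of 45101 probe sets, 64 controls were left out, and 34945 of the others carry 1 symbol in the platform annotation. Intensities were taken to log2(value + 16), a scale on which changes of dim genes come out too small. The filter required a probe set to exceed its array's median on 3 or more of 6 arrays, and 22497 did. Mutant minus wild type was tested two-sided over all of these with limma 3.58.1 in R 4.3.3 (lmFit, eBayes) without a block, with Benjamini-Hochberg adjustment and a threshold of 0.05. These steps were first tested on simulated data.

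Groups and replicate numbers came from the sample titles, and the labels describe 3 independent assays. Deviations from the group means correlated at 0.797, 0.671 and 0.845 between same-numbered arrays and at -0.618 to -0.0138 between others. Deviations within a group cancel out, so positive values between same-numbered arrays push the others down on balance. The comparison of same-numbered arrays as pairs had been planned and did not rest on these values. The SE and intervals come from the fit without the block unless stated, and so include the spread between assays. With the replicate number as a block the SE of Nlrc5 was 0.17, against 0.52 without it. It was 0.095 against 0.18 for Tapbp, 0.076 against 0.17 for B2m and 0.27 against 0.29 for Tap1. Other settings were the pseudocount, the filter, quantile normalization, the mean of a gene's probe sets, both kinds of block, and leaving out arrays or assays. The number of arrays limits the precision. Named are all members, up to 4 genes with the smallest p per list, and the 6 genes most like the members over the arrays. The members and lists were chosen with earlier results of these data known. Promoter windows are RefSeq's, from build GRCm38.p6, while the arrays name no build. T, NK, B, dendritic, neutrophil, stromal, osteoclast and macrophage markers were read as checks. The B cell markers Cd79a and Ms4a1 read at most 11.7, the dendritic markers Flt3, Zbtb46 and Xcr1 at most 8.47, with Itgax at 177 to 494 in the mutant and 231 to 346 in the wild type, and the neutrophil markers summed to 147 to 669 in the mutant and 231 to 696 in the wild type.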

Additional observations from a re-analysis of the deposited data

How the results depend on the processing

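In none of the 18 other settings did a member or another pathway gene pass by limma, with a smallest adjusted p of 0.859 for a member, and over all probe sets 1 passed with the random replicate block and 0 in each other setting. With the replicate block the median difference of the members was -0.21, as without it, and it changed no call. Outside the settings that leave out arrays, all 10 members had a lower mean, their median ran from -0.28 to -0.20, and 3 to 5 were lower in every pair. Leaving out arrays moved more, as the assays differ: the median ran from -0.32 without mutant array 3 to -0.041 without wild-type array 3 (also -0.041 without mutant array 1), and 7 to 10 members had a lower mean. The members lower in every pair were 4 to 8, with 8 without mutant array 2, wild-type array 2 or both. The members without overlap were 1 to 3, with 3 without mutant array 3 or both arrays of assay 3. With fewer pairs and arrays left, both counts are easier to reach for any gene. The shares over all genes in these settings are not given, so the rises say nothing particular about the members. The direction turned for 4 members: B2m ran from -0.17 to 0.066, H2-K1 from -0.31 to 0.052, Nlrc5 from -0.74 to 0.047 and Psmb8 from -0.26 to 0.043. The upper ends came without wild-type array 3, and for H2-K1 without mutant array 1. Nlrc5 also turned without mutant array 1 (0.040), and Psmb8 without assay 3 (0.0017). The causes were not tested, beyond the unequal assays that such settings leave. Tap1 ran from -0.90 to -0.28 and Tap2 from -0.46 to -0.25.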

Other observations

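A probe set annotated to both H2-K1 and H2-D1, left out above for its several symbols, read 4143, 4880.1 and 7143 on mutant arrays 1, 2 and 3, against 5788, 6095 and 5965 on wild-type arrays 1, 2 and 3. It was lower in the mutant in assays 1 and 2 and higher in assay 3, with a log2 difference of -0.18 ± 0.22 SE. A dim probe set annotated to H2-D1, H2-Q2 and Gm38417 read 23.1, 23.4 and 27.6 in the mutant, against 24.2, 22.8 and 22.2 in the wild type, a log2 difference of 0.06 ± 0.09 SE. A further one, annotated to H2-K1 and H2-Q5, lay below the filter. Zfas1, a noncoding RNA among the 6 genes most like the members over the arrays, read 766, 907 and 1413 in the mutant, against 1059, 1041 and 2144 in the wild type, and was lower in every pair, by -0.46, -0.20 and -0.60. Among the windows with TGACG and ATTGG at the spacing of H2-K1, H2-D1 and B2m was that of H2-M3, a nonclassical class I gene singled out after its values were seen. It read 1067, 1366 and 1302 in the mutant, against 1393, 962 and 1270.4 in the wild type, a log2 difference of 0.05 with opposite signs in assays 1 and 2 (-0.38 and 0.50).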
